A study of Mus musculus with 13 samples.

Results

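The replication-dependent histone genes of the mouse were followed across kidneys of a pair of polycystic kidney disease models and, for the single gene listed there, across a kidney cell line.
Members were the protein-coding rows of the kidney table whose symbol begins with Hist1h, Hist2h, Hist3h or Hist4h, which gave 68 of 28183 listed genes.
By protein class they comprised 6 H1, 19 H2A, 18 H2B, 12 H3 and 13 H4 genes.
Most of them, 55, carry Hist1 symbols and lie on chromosome 13, 10 in the Hist2 cluster on chromosome 3, 2 in the Hist3 cluster on chromosome 11 and 1, Hist4h4, on chromosome 6 (mm10 coordinates of the kidney table). The Hist1 genes begin at 21715763, and all form the Hist1 cluster except Hist1h2al, which lies far from the rest at 51202688.
The choice used symbols alone and no measured value.
Of the 68 genes, 64 reached a scaled value of at least 1 in at least 2 kidney libraries and were tested; Hist1h1t and Hist1h2ba, known from the testis, Hist1h2aa and Hist2h2ab did not.
The table of the cells lists 2016 genes, of which 1 was a member, Hist1h2bc.

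Histones H2A, H2B, H3 and H4 form the protein core around which DNA is wound in a nucleosome, and H1 binds the linker DNA where it enters and leaves.
The genes followed here are the many clustered copies that a cell transcribes mainly in S phase, when new DNA needs new nucleosomes, and they differ from the replication-independent variants, which are made throughout the cell cycle.
Their mRNAs end in a stem-loop instead of a poly(A) tail, which is bound by Slbp and formed with the help of the U7 snRNP, and they are broken down when replication stops.
The mouse kidney keeps adding cells after birth, and cyst growth in polycystic kidney disease involves dividing tubule cells.

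The kidneys fell into 4 groups of 2 libraries each, all on the C57BL/6 strain.
Pkd1 knockouts carried the KSP/Cre transgene with a floxed Pkd1 gene (KSP/Cre+;Pkd1f/f) and were taken at postnatal day 10, against controls of the same age without Cre (KSP/Cre-;Pkd1f/f).
Pkd2 knockouts carried Pkhd1/Cre with a floxed Pkd2 gene (Pkhd1/Cre+;Pkd2f/f) and were taken at postnatal day 20, against Pkhd1/Cre-;Pkd2f/f controls.
Every kidney of a model, controls included, thus carried the floxed alleles.
The KSP promoter is that of cadherin 16 and drives Cre in tubule epithelium, and Pkhd1/Cre drives it in collecting ducts, so whole kidneys also hold cells in which the gene is intact.
The titles of the Pkd2 knockout libraries carry the letters WT, while their genotype lists Cre; they were grouped by genotype.
The mIMCD-3 line, from the inner medullary collecting duct of the mouse, received 10 nM of a gapmer (an antisense oligonucleotide that directs RNase H to its target) against the long noncoding RNA Hoxb3os in 3 libraries or a control gapmer in 2, and was harvested after 48 hours.

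Kidney libraries held 30.7 to 94.4 M recovered reads, and the cell libraries 7.47 to 14.4 M over the listed genes.
None of 10 kidney epithelium markers was at 0 in all libraries, and their summed value ran between 972 and 5222.
Pkd1 stood at 24.1 and 26.03 in its knockouts, against 31.1 and 22.7 in their controls, and Pkd2 at 50.7 and 53.3 in its knockouts, against 69.0 and 61.2 in their controls; the floxed exons are not named in the labels, and these totals are therefore no check of the deletion.
Hoxb3os was not analysed here in the cells.
The labels do not state that replicates are separate animals or cultures; the p-values then reflect only the spread among these libraries, possibly a technical one.
The labels give total RNA and a TruSeq kit without saying whether poly(A) RNA was selected, which bears on mRNAs that carry no poly(A) tail.
Small structural RNAs (such as 7SK and 7SL) took between 6.42% and 29.2% of all values per kidney library, and their share is set beside the results below because it differed between knockout replicates alongside the histone sum.

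The feature that these mRNAs share is the stem-loop after the stop codon, shown here for an example of each class because it stands in for the poly(A) tail.
The sequences are from GENCODE M21 transcripts, with the 16 letters of the stem-loop in capitals and 5 bases on either side.
Hist1h1c: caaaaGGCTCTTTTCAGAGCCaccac
Hist1h2ae: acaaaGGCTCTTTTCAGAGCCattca
Hist1h2bg: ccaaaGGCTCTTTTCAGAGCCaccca
Hist1h3d: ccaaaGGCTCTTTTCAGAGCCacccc
Hist1h4c: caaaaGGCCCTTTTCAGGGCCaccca
Hist2h2ac: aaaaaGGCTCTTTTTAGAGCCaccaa

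The letters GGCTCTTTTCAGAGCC were found after the stop codon in 23 of the 49 members with at least 40 annotated bases there, and the looser pattern GGNNCTNTTNAGNNCC in 41 of those 49.
Among all 21901 coding genes of GENCODE M21, members included, 0.123% held the exact letters and 0.416% the looser pattern.
The Hist1h4c line differs from the others in its stem, and the Hist2h2ac line in its loop.
No hit was found in the transcripts searched for the remaining 8 of the 49: Hist1h1a, Hist1h2bc, Hist1h2bp, Hist1h2bq, Hist1h2br, Hist1h3g, Hist1h4a and Hist2h2be.
Of the 3 members listed here as known polyadenylated mRNAs as well, Hist1h1c has the stem-loop there, and Hist1h2bc and Hist2h2be are among those without a hit.

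H2A and H2B genes often lie head to head, and 12 such pairs were found among the members, with 235 to 305 bases between the annotated starts.
A stretch of this kind is shown because the changes of paired genes are compared below.
It is the start region of Hist1h2bg (RefSeq, GRCm38.p6, chr13:23571150-23571449, plus strand, 250 bases before and 50 after the start), which covers most of the 286 bases between it and Hist1h2ae on the other strand.
Beside it stands the start region of Hist1h1b (chr13:21780576-21780875, minus strand), the member called higher in Pkd2 knockouts.
Capitals mark the TATAAA box, the shorter CCAAT box and the octamer ATTTGCAT on either strand.
Hist1h2bg: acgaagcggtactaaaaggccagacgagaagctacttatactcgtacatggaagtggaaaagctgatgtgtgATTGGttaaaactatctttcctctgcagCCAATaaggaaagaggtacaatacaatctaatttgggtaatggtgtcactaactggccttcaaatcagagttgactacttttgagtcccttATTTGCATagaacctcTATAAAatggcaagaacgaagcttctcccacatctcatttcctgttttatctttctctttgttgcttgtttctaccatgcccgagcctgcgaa
Hist1h1b: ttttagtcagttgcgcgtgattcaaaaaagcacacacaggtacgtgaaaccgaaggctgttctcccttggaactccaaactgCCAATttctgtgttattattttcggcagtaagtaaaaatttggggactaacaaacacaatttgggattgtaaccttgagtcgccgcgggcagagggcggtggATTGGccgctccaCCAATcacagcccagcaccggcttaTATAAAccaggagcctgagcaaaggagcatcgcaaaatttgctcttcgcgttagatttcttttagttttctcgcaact

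Of the 62 members matched to a RefSeq start region, CCAAT was present in 53 (85.5%, against 37.9% of all 27025 genes' regions of the same length), TATAAA in 35 (56.5%, against 14.2%) and ATTTGCAT, the octamer known from H2B promoters, in 13 (20.97%, against 1.75%).
ATTTGCAT was found in 7 of 18 H2A and 6 of 16 H2B regions and in no region of the other classes. Regions of head-to-head genes overlap, so a motif in the shared stretch is counted for both genes. Hist1h2aa with Hist1h2ba, Hist1h2ae with Hist1h2bg and Hist1h2ah with Hist1h2bk each hold the same octamer. The counts of all motifs above are therefore of genes and not of separate stretches.
CCAAT was found in every H1, H2A, H2B and H3 region and in 3 of the 12 H4 regions.
The motifs were counted on both strands and do not overlap each other in the lines shown; a match is a string of letters, not a bound site.

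The copies resemble each other closely, which limits what the counts of a single gene mean.
In 65 members with an annotated coding sequence, a median of 80.4% of the 50-base words also occurred in transcripts of another gene, with class medians of 10.9% for H1, 92.3% for H2A, 82.8% for H2B, 84.7% for H3 and 70.3% for H4.
In 8 members the coding sequence was identical to that of another member (Hist1h2ao with Hist1h2ap, Hist1h2bq with Hist1h2br, Hist1h4m with Hist1h4n, and Hist2h2aa1 with Hist2h2aa2).
Between 29.4% and 57.4% of the members came out as whole reads per library (within 0.02 of a read), against 93.9% to 96.2% of all genes, which is what a counting that divides shared reads among copies would give.
All 6 H1 genes were whole in every library, as were Hist2h2be and Hist4h4, which like Hist1h1a, Hist1h1b and Hist1h1t shared no such word, and Hist2h4, which shared 6.08% of its words.
Hist1h1c, Hist1h1d and Hist1h1e shared 21.9% to 26.4%. Genes that shared more were whole in every library too: Hist1h4m (100% of its words), Hist2h2ac (76.0%), Hist1h4d (42.2%) and Hist3h2ba (37.7%), as was Hist1h2aa (23.8%). Whole reads therefore do not show that a gene is free of shared sequence.
For most H2A, H2B, H3 and H4 genes the level of a single gene is uncertain, and genes of like sequence are not independent of each other.
Hist3h2a overlaps Trim17, Hist2h2aa1 and Hist2h3c1 overlap Gm20634, and Hist2h2bb overlaps a lincRNA row of the same symbol. These overlaps are on the same strand, so the reads of these genes are uncertain too. Most H2A genes, among them each one called in Pkd1 knockouts, overlap a miRNA annotated on the opposite strand, and no gene of another class does. Hist1h2ah shared words with 30 genes that are not members, and Hist1h2bk with 0. The strand setting was not given, so H2A counts carry a limit of their own in the comparisons below.

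Among members with a listed genomic span under 2 kilobases, scaled values divided by that span in kilobases were highest for H4 genes.
In Pkd1 controls the class medians of the group means per kilobase were 23.7 for H1, 27.2 for H2A, 16.6 for H2B, 22.1 for H3 and 65.2 for H4, over the 61 members whose listed span is under 2 kilobases. The cut kept 13 of 18 H2B genes. It dropped Hist2h2be and also Hist1h2be, Hist1h2bq, Hist1h2br and Hist1h2bc, whose undivided means in Pkd1 controls were 52.2, 38.8, 36.5 and 30.1. The H2B median therefore leaves out some of the highest genes of the class.
Hist1h4c led in those kidneys with 179 and 301 per kilobase, followed by Hist1h4d with 170.5 and 257 and Hist1h4h with 159 and 222, neighbours whose libraries overlapped.
Levels spread over these 61 members from 0.0596 per kilobase for Hist1h2aa to 240.0 for Hist1h4c in that group.
The Hist2 H2A pair Hist2h2aa1 and Hist2h2aa2 stood at 71.7 and 76.0 per kilobase, above every H2A gene of the Hist1 cluster, of which Hist1h2ap was highest at 44.9.

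As a sum over the 68 genes, scaled values were 1507 and 494 in Pkd1 knockouts, 1249 and 1493 in Pkd1 controls, 603 and 276 in Pkd2 knockouts and 513 and 653 in Pkd2 controls.
The controls at day 20 lay below those at day 10 without overlap, while in each knockout group replicate 2 lay below both control libraries and replicate 1 did not.
In both knockout groups replicate 1 had the higher histone sum.
In the knockout groups the small structural RNA share was also higher in replicate 1, with 29.2% and 13.4% in Pkd1 knockouts, 15.9% and 23.9% in Pkd1 controls, 23.7% and 6.42% in Pkd2 knockouts and 20.4% and 19.8% in Pkd2 controls.
Its part in the histone values was not tested beyond its use as a covariate, given with each comparison.

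**Figure D1:**
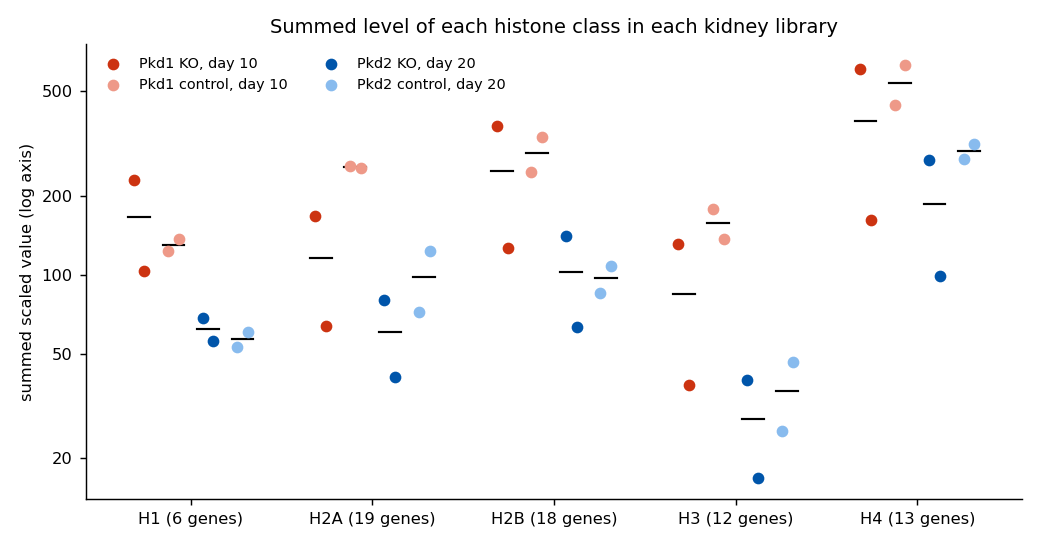
Summed scaled value (log axis) of the genes of each histone class in each of the 8 kidney libraries; points are libraries and bars are group means. H2A sums of Pkd1 knockouts (167 and 64.0) lie below those of their controls (259.7 and 254.5), and day 20 controls lie below day 10 controls in every class.

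**Figure D2:**
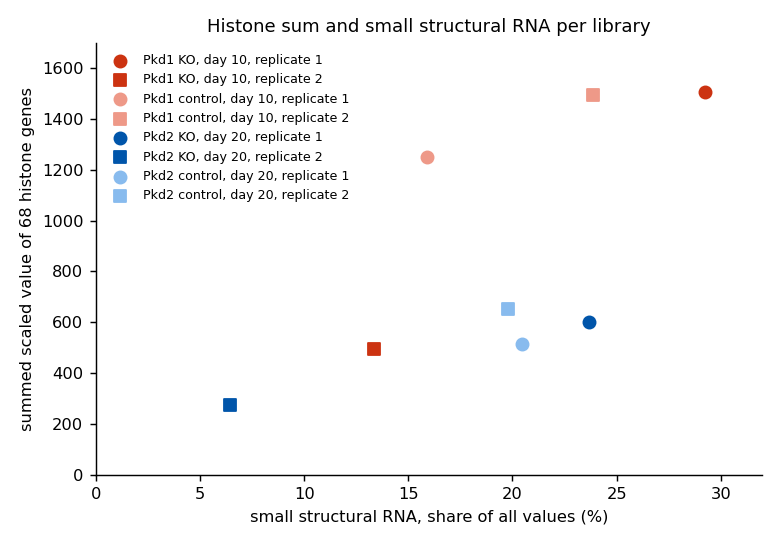
Summed scaled value of the 68 histone genes against the share of small structural RNA (% of all values) in each kidney library, with a marker per replicate. The libraries with the lowest share of each knockout group, 13.4% and 6.42%, also have the lowest histone sums, 494 and 276.

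The controls were compared at day 20 against day 10, and many H1, H2A, H2B and H3 genes were lower at day 20.
Of 64 tested genes 32 fell and 0 rose at an adjusted p below 0.05 (limma, Benjamini-Hochberg over 14637 genes), where 7.26% of all tested genes were called lower and 5.04% higher.
The calls comprised 4 of 5 H1, 12 of 17 H2A, 8 of 17 H2B and 8 of 12 H3 genes, and 0 of 13 H4 genes.
The median log2 change was -1.59 over the 64 tested members and -0.00 over all tested genes, with class medians of -1.79 for H1, -1.78 for H2A, -1.61 for H2B, -1.87 for H3 and -1.08 for H4.
Both day 20 libraries lay below both day 10 libraries in 59 of 64 genes, against 31.2% of all tested genes.
Hist2h2be was the only tested member with a positive change, of 0.08, and 0 members were higher at an unadjusted p below 0.05, by edgeR or by DESeq2.

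Age, the floxed gene and any batch cannot be told apart in this comparison, since day 20 controls carried floxed Pkd2 and day 10 controls floxed Pkd1.
Fewer dividing cells and less histone RNA per cell cannot be told apart either, here or in the comparisons that follow.
The count fell to 3 without Pkd1 control replicate 1 or Pkd2 control replicate 1, to 6 without Pkd1 control replicate 2 and to 10 without Pkd2 control replicate 2; with the structural RNA share as a covariate it was 53.

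**Figure D3:**
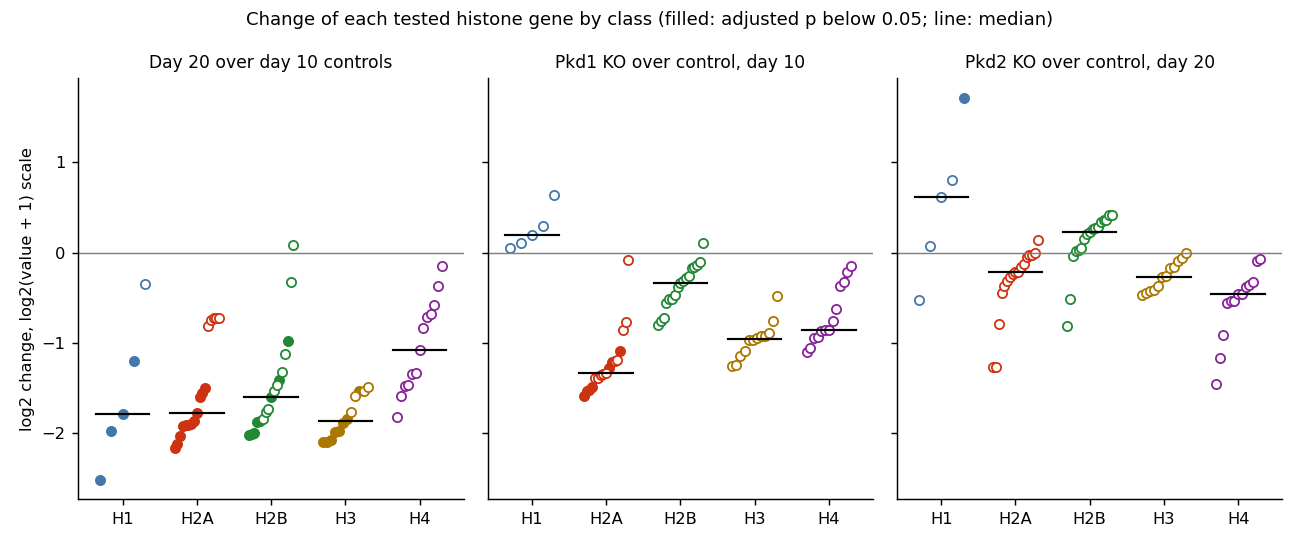
Log2 change of each of the 64 tested histone genes by class in the 3 comparisons; filled points passed an adjusted p below 0.05 and bars are class medians. At day 20, 32 genes are called lower; in Pkd1 knockouts the 7 called genes are all H2A; in Pkd2 knockouts the called gene is Hist1h1b, at 1.72.

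In Pkd1 knockouts at day 10 the genes that fell by limma were H2A genes, and no gene of another class passed in that fit.
Of 64 tested members 7 fell and 0 rose, where 5.48% of all tested genes were called lower and 5.11% higher, and the 7 were all H2A genes of the Hist1 cluster.
Class medians of the log2 change were 0.20 for H1, -1.34 for H2A, -0.34 for H2B, -0.96 for H3 and -0.85 for H4; the 64 tested members had a median of -0.83 and all tested genes of -0.00.
Both knockout libraries lay below both controls in 26 of 64 members, against 29.2% of all tested genes, and in 15 of 17 H2A genes, 8 of 12 H3 genes, 2 of 13 H4 genes and 1 of 17 H2B genes.
No member had both knockout libraries above both controls, against 29.1% of all tested genes, and 0 were higher at an unadjusted p below 0.05, by edgeR or by DESeq2, while 19 were lower at an unadjusted p below 0.05.
Of the 68 members, 17 were lower in Pkd1 knockouts at an adjusted p below 0.05 in the authors' deposited table and 0 higher, against 4.35% and 3.59% of all listed genes. Those 17 include the H3 genes Hist1h3d, Hist2h3c1 and Hist2h3c2 beside H2A genes. With the structural RNA covariate, the H2B gene Hist1h2bc and some H3 and H4 genes were called lower too.

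These calls rest on few libraries.
Without Pkd1 knockout replicate 2, which had the lower structural RNA share, 0 members were lower, Hist1h1b was higher, and the median over members was -0.03.
Without Pkd1 knockout replicate 1 there were 19 lower and a median of -1.63.
Leaving out Pkd1 control replicate 1 gave 0 lower, Pkd1 control replicate 2 gave 1, and either Pkd2 control library gave 4; edgeR gave 2, DESeq2 12, no filter 0, and the structural RNA covariate 21.
The H2A median was -0.81 without knockout replicate 2 and -1.93 without knockout replicate 1.
The H3 median was -0.18 without knockout replicate 2 and -1.73 without knockout replicate 1.
The H1 median was -0.24 without knockout replicate 1, and those of H2B and H4 were 0.30 and 0.18 without knockout replicate 2, so the sign for H1, H2B and H4 depends on the library.

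In Pkd2 knockouts at day 20 a single member rose, Hist1h1b, the linker histone H1.5.
Of 64 tested members 1 rose and 0 fell, where 9.54% of all tested genes were called higher and 8.13% lower.
Class medians of the log2 change were 0.62 for H1, -0.21 for H2A, 0.23 for H2B, -0.27 for H3 and -0.46 for H4, with a median of -0.17 over the tested members and -0.01 over all tested genes.
At an unadjusted p below 0.05 there were 2 higher and 4 lower members; edgeR and DESeq2 each called 2 higher, Hist1h1a and Hist1h1b, and 0 lower.
The H2A median was 0.04 without Pkd2 knockout replicate 2 or Pkd2 control replicate 2, and the median over the tested members 0.23 with the structural RNA covariate.
That median was -0.57 without Pkd2 knockout replicate 1, 0.19 without Pkd2 knockout replicate 2, -0.47 without Pkd2 control replicate 1 and 0.04 without Pkd2 control replicate 2, so its size and sign depend on the library.
Both knockout libraries lay above both controls in 5 members (3 H1 and 2 H2B genes) and below them in 9 (3 H2A, 1 H2B and 5 H4 genes), against 31.9% and 30.9% of all tested genes.
By the authors' deposited table, 2 members were higher, Hist1h1a and Hist1h1b, and 3 lower, Hist1h4c, Hist2h2aa1 and Hist2h2aa2, against 5.68% and 4.58% of all listed genes.
The Hist1h1b call was lost without Pkd2 knockout replicate 2 or either Pkd2 control library (adjusted p up to 0.0776), and without Pkd2 knockout replicate 1 Hist1h4c, Hist2h2aa1 and Hist2h2aa2 were called lower.

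The difference between the knockout effects, Pkd1 minus Pkd2, was tested directly.
At an adjusted p below 0.05, 0 of 64 members differed by limma, edgeR or DESeq2, where 0.00683% of all tested genes were called lower and 0% higher.
At an unadjusted p below 0.05 there were 9 members, all H2A genes with a more negative change in Pkd1 knockouts; their smallest adjusted p was 0.435.
The models also differ in age, Cre driver and floxed gene, so a difference between them belongs to none of these alone.

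The H1 genes, which encode linker histones, were the class with the lowest median share of words found in other genes.
Hist1h1b (chromosome 13, 21779883 to 21780625, minus strand; H1.5) had scaled values of 41.9 and 18.7 in Pkd1 knockouts, 15.0004 and 20.8 in Pkd1 controls, 8.18 and 11.5 in Pkd2 knockouts and 2.34 and 2.18 in Pkd2 controls.
The Pkd2 knockouts stood clear of their controls, with 292 and 498 reads against 90 and 99, a log2 change of 1.72 ± 0.34 (SE, n = 2 each, limma adjusted p = 0.0117), and the day 20 controls stood clear of the day 10 controls, with -2.52 ± 0.34 (adjusted p = 0.00313).
Its Pkd1 knockout libraries overlapped the controls. Hist1h1a, the H1.1 gene, stood at 11.1 and 6.71 in Pkd1 knockouts, 8.997 and 7.04 in Pkd1 controls, 2.999 and 2.94 in Pkd2 knockouts and 1.51 and 1.06 in Pkd2 controls.
It fell by 1.98 on the log2 scale at day 20 (adjusted p = 0.00195, limma), and both Pkd2 knockouts lay above both controls, with 0.80 ± 0.24 (adjusted p = 0.0504), just short of the threshold.
Under a pseudocount of 0.1, edgeR and DESeq2 this gene was called too. Hist1h1d, encoding H1.3, had 46.7 and 17.4 in Pkd1 knockouts, 20.3 and 26.3 in Pkd1 controls, 10.5 and 8.93 in Pkd2 knockouts and 5.64 and 6.35 in Pkd2 controls.
Both Pkd2 knockouts again lay above both controls, but the change of 0.62 ± 0.38 did not pass (adjusted p = 0.291), while its fall at day 20 did (-1.79, adjusted p = 0.0173, limma).
Hist1h1e, for H1.4, had 69.3 and 37.3 in Pkd1 knockouts, 44.3 and 44.2 in Pkd1 controls, 21.5 and 17.99 in Pkd2 knockouts and 18.8 and 18.5 in Pkd2 controls, and it fell by 1.201 at day 20 (adjusted p = 0.01903, limma).
Its change in Pkd2 knockouts was 0.07 ± 0.26. Hist1h1c, for H1.2, a gene also made as polyadenylated mRNA, had 60.3 and 23.4 in Pkd1 knockouts, 34.6 and 38.3 in Pkd1 controls, 25.3 and 14.7 in Pkd2 knockouts and 24.9 and 32.2 in Pkd2 controls.
It passed no comparison, with an age change of -0.35 ± 0.40 (adjusted p = 0.633, limma).
The testis gene Hist1h1t reached at most 0.284, in a Pkd1 control.

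The H2A genes, whose protein pairs with H2B in the nucleosome, held all 7 calls of the Pkd1 comparison.
Hist1h2ah (chromosome 13, 22035164 to 22035568, minus strand), with the smallest adjusted p, had scaled values of 4.64 and 1.92 in Pkd1 knockouts, 12.9 and 9.75 in Pkd1 controls, 2.12 and 1.15 in Pkd2 knockouts and 1.66 and 2.89 in Pkd2 controls.
Its Pkd1 knockouts lay below both controls, with a log2 change of -1.59 ± 0.34 (SE, n = 2 each, limma adjusted p = 0.0227), and so did its day 20 controls below day 10 controls, with -1.93 ± 0.34 (adjusted p = 0.00874).
Hist1h2ai had 5.05 and 2.14 in Pkd1 knockouts, 13.04 and 10.4 in Pkd1 controls, 2.33 and 1.29 in Pkd2 knockouts and 1.79 and 3.01 in Pkd2 controls, and Hist1h2ae had 5.81 and 2.23 in Pkd1 knockouts, 13.2 and 11.2 in Pkd1 controls, 2.61 and 1.55 in Pkd2 knockouts and 1.96 and 3.18 in Pkd2 controls.
Both genes had knockouts below controls, with Pkd1 changes of -1.53 ± 0.33 and -1.49 ± 0.35 (limma adjusted p = 0.0241 and 0.0304).

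The other called H2A genes were Hist1h2af, Hist1h2ag, Hist1h2an and Hist1h2ak, with Pkd1 changes of -1.28, -1.52, -1.21 and -1.09 (limma adjusted p between 0.0311 and 0.04905).
Hist1h2ag had 6.901 and 2.63 in Pkd1 knockouts, 15.9 and 13.03 in Pkd1 controls, 3.16 and 1.55 in Pkd2 knockouts and 1.97 and 3.78 in Pkd2 controls.
Hist1h2af stood at 2.08 and 0.614 in Pkd1 knockouts, against 4.97 and 3.95 in their controls, and Hist1h2an at 2.096 and 0.474, against 4.06 and 3.83.
Hist1h2ak, the lowest of the called genes, stood at 1.17 and 0.825 in Pkd1 knockouts, against 4.89 and 2.04 in their controls.
In Pkd2 knockouts these 3 genes ranged from 0.301 to 0.927, against 0.2599 to 1.08 in Pkd2 controls, levels at which the pseudocount of 1 shrinks a fold.

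Another 5 H2A genes of the Hist1 cluster passed the age comparison and missed the threshold in Pkd1 knockouts. Hist1h2ap had 11.7 and 4.85 in Pkd1 knockouts, 21.9 and 21.3 in Pkd1 controls, 5.47 and 2.798 in Pkd2 knockouts and 2.84 and 5.61 in Pkd2 controls, and its identical copy Hist1h2ao had 10.6 and 4.53 in Pkd1 knockouts, 19.97 and 18.7 in Pkd1 controls, 5.13 and 2.47 in Pkd2 knockouts and 2.72 and 4.91 in Pkd2 controls.
Their age changes were the most negative of the class, -2.17 ± 0.40 and -2.12 ± 0.39 (limma adjusted p = 0.0106 and 0.0102), and their Pkd1 changes -1.39 and -1.34 missed the threshold (adjusted p = 0.0609 and 0.0618).
Hist1h2ab had 9.06 and 2.76 in Pkd1 knockouts, 15.3 and 14.2 in Pkd1 controls, 4.15 and 1.72 in Pkd2 knockouts and 2.405 and 4.15 in Pkd2 controls.
Hist1h2ac had 8.61 and 2.72 in Pkd1 knockouts, 14.5 and 13.8 in Pkd1 controls, 3.31 and 1.68 in Pkd2 knockouts and 2.64 and 4.33 in Pkd2 controls, and Hist1h2ad had 6.51 and 2.37 in Pkd1 knockouts, 13.4 and 11.1 in Pkd1 controls, 2.85 and 1.404 in Pkd2 knockouts and 1.95 and 3.39 in Pkd2 controls.
In all of these both Pkd1 knockouts lay below both controls, with changes from -1.39 to -1.34 and adjusted p between 0.0537 and 0.0955 (limma).

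The Hist2 pair, of which Hist2h2aa1 overlaps Gm20634, encodes H2A as well and passed no comparison in the main limma fit. In the authors' deposited table both copies were lower in Pkd2 knockouts, and Hist2h2aa2 also in Pkd1 knockouts.
Hist2h2aa1 had 30.2 and 10.3 in Pkd1 knockouts, 40.01 and 43.96 in Pkd1 controls, 14.9 and 6.38 in Pkd2 knockouts and 18.1 and 34.5 in Pkd2 controls, and its identical copy Hist2h2aa2 had 28.8 and 9.78 in Pkd1 knockouts, 38.5 and 41.8 in Pkd1 controls, 14.02 and 6.05 in Pkd2 knockouts and 17.5 and 32.2 in Pkd2 controls.
Both Pkd2 knockouts lay below both controls in each copy, with changes of -1.26 ± 0.51 and -1.27 ± 0.50 that did not pass (limma adjusted p = 0.121 and 0.117).
Their age changes were -0.72 and -0.73.
Hist3h2a, whose span overlaps Trim17, had Pkd1 and Pkd2 changes of -0.08 and 0.14.

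Of 17 tested H2B genes 8 fell at day 20 and none passed in either knockout comparison.
Hist1h2be had the highest mean value of the class, 91.4 and 23.1 in Pkd1 knockouts, 36.4 and 68.05 in Pkd1 controls, 35.6 and 13.1 in Pkd2 knockouts and 20.3 and 24.5 in Pkd2 controls; its listed span overlaps the pseudogene Gm11398 so its reads are uncertain. Hist1h2bq had 50.3 and 19.9 in Pkd1 knockouts, 37.4 and 40.1 in Pkd1 controls, 15.7 and 7.36 in Pkd2 knockouts and 7.96 and 9.81 in Pkd2 controls, and its identical copy Hist1h2br had 46.4 and 17.99 in Pkd1 knockouts, 35.6 and 37.3 in Pkd1 controls, 14.3 and 6.61 in Pkd2 knockouts and 7.18 and 9.34 in Pkd2 controls.
Both fell at day 20, with log2 changes of -2.01 and -2.03 (limma adjusted p = 0.0171 and 0.0178).
Hist2h2bb, of the Hist2 cluster, had 18.1 and 11.4 in Pkd1 knockouts, 12.6 and 14.2 in Pkd1 controls, 6.03 and 2.89 in Pkd2 knockouts and 3.25 and 2.63 in Pkd2 controls, with the smallest adjusted p of the class for age (-1.87 ± 0.30, adjusted p = 0.00609, limma). Its span overlaps a lincRNA row of the same symbol on the same strand. Of its words, 100% also occurred in genes that are not members, so its reads are uncertain.
Hist1h2bf had 10.4 and 4.28 in Pkd1 knockouts, 8.24 and 13.2 in Pkd1 controls, 3.17 and 2.83 in Pkd2 knockouts and 1.93 and 2.29 in Pkd2 controls, and it fell by 1.88 at day 20 (adjusted p = 0.00977, limma).
Hist1h2bh, with 4.88 and 1.64 in Pkd1 knockouts, 4.18 and 4.76 in Pkd1 controls, 1.603 and 1.05 in Pkd2 knockouts and 0.834 and 0.754 in Pkd2 controls, fell by 1.61 (adjusted p = 0.0155).
In these genes the day 20 controls lay below the day 10 controls, and the Pkd1 knockouts overlapped their controls.

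The H2B genes listed as also made as polyadenylated mRNA, Hist2h2be and Hist1h2bc, did not pass the age comparison.
Hist2h2be had 3.16 and 3.03 in Pkd1 knockouts, 3.27 and 3.76 in Pkd1 controls, 2.38 and 2.29 in Pkd2 knockouts and 3.72 and 3.84 in Pkd2 controls, an age change of 0.08 ± 0.16 (limma adjusted p = 0.7896) with overlapping groups.
Its Pkd2 knockouts lay below their controls, with -0.52 ± 0.16 (adjusted p = 0.0553), and under quantile scaling this change was called.
Hist1h2bc had 26.98 and 10.8 in Pkd1 knockouts, 25.8 and 34.3 in Pkd1 controls, 19.6 and 8.403 in Pkd2 knockouts and 19.2 and 28.8 in Pkd2 controls, an age change of -0.33 ± 0.46 (adjusted p = 0.699).
Over the 3 members listed as polyadenylated mRNAs, 0 passed the age comparison and their median was -0.33, against -1.59 over the 64 tested members. The difference between these medians was not tested. The list was chosen by name, and polyadenylated forms of other members were not looked for. Of the other members without a stem-loop hit, Hist1h1a, Hist1h2bq, Hist1h2br and Hist1h3g fell at day 20, and Hist1h2bp and Hist1h4a did not pass.

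Of 12 tested H3 genes 8 fell at day 20; in Pkd1 knockouts their changes lay between -1.26 and -0.48, and none passed.
Hist1h3b had 18.1 and 5.67 in Pkd1 knockouts, 22.04 and 18.1 in Pkd1 controls, 5.61 and 1.85 in Pkd2 knockouts and 2.89 and 5.14 in Pkd2 controls, with an age change of -2.10 ± 0.52 (limma adjusted p = 0.0315).
Hist1h3d had 9.99 and 3.03 in Pkd1 knockouts, 15.9 and 11.9 in Pkd1 controls, 3.48 and 1.69 in Pkd2 knockouts and 1.57 and 3.74 in Pkd2 controls, the smallest adjusted p of the class for age at 0.0239 (-2.08 ± 0.48, limma).
In both genes the day 20 controls lay below the day 10 controls.
Hist2h3c1 had 11.2 and 3.31 in Pkd1 knockouts, 19.9 and 13.3 in Pkd1 controls, 3.46 and 1.699 in Pkd2 knockouts and 2.84 and 4.65 in Pkd2 controls; both Pkd1 knockouts lay below both controls, with -1.25 ± 0.47 (adjusted p = 0.124).
Hist1h3f, the other H3 gene with a high mean, had 12.97 and 4.76 in Pkd1 knockouts, 19.04 and 14.03 in Pkd1 controls, 5.06 and 1.85 in Pkd2 knockouts and 3.73 and 6.03 in Pkd2 controls. It passed no comparison in the main limma fit, while DESeq2 called it lower at day 20.

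The H4 genes passed no comparison in the main limma fit. DESeq2 called Hist1h4k lower at day 20, control libraries alone gave further H4 calls, and the authors' deposited table had Hist1h4c lower in Pkd2 knockouts.
Hist1h4c had 92.3 and 27.2 in Pkd1 knockouts, 70.8 and 119 in Pkd1 controls, 53.8 and 15.9 in Pkd2 knockouts and 80.6 and 84.96 in Pkd2 controls.
Its Pkd2 knockouts lay below both controls, with -1.46 ± 0.62 (limma adjusted p = 0.139), while its controls at day 20 lay within the range of those at day 10 (-0.15 ± 0.62).
Hist1h4h had 87.98 and 19.9 in Pkd1 knockouts, 75.4 and 105 in Pkd1 controls, 53.5 and 16.5 in Pkd2 knockouts and 61.3 and 76.9 in Pkd2 controls, with Pkd2 knockouts below their controls as well (-1.17 ± 0.67, adjusted p = 0.256, limma).
Summed over the class, H4 values were 609.7 and 162 in Pkd1 knockouts, 442 and 632 in Pkd1 controls, 273 and 98.7 in Pkd2 knockouts and 276 and 314 in Pkd2 controls, and the 2 Pkd1 knockout libraries stood on either side of control replicate 1.

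A ratio within a library does not depend on how libraries are scaled to each other.
The summed H2A value over the summed H2B value was 0.452 and 0.507 in Pkd1 knockouts, against 1.06 and 0.762 in their controls, and 0.570 and 0.647 in Pkd2 knockouts, against 0.848 and 1.14 in theirs.
The knockout libraries thus lay below the controls of their model in both models, whichever replicate is taken, and this difference was not tested.
H3 over H2B was 0.354 and 0.302 in Pkd1 knockouts, against 0.723 and 0.409 in their controls, and H1 over H2B was 0.621 and 0.821, against 0.501 and 0.410.
In Pkd2 knockouts H3 over H2B was 0.282 and 0.266, against 0.298 and 0.430 in their controls, and H1 over H2B was 0.486 and 0.887, against 0.624 and 0.557; the groups overlapped for H1 over H2B and not for H3 over H2B.
H4 over H2B was 1.65 and 1.28 in Pkd1 knockouts, against 1.795 and 1.89 in their controls, and 1.94 and 1.56 in Pkd2 knockouts, against 3.24 and 2.902 in theirs, so its groups did not overlap in either model, as for H2A over H2B.
A ratio shows that classes changed unequally, not which of them changed.

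The changes of H2A and H2B genes were also set side by side in the head-to-head pairs.
In 11 of 11 tested pairs the H2A gene had the more negative Pkd1 change, with a median of -1.39 for the H2A genes and -0.34 for the H2B genes of the pairs and a median difference of -0.87 (range -1.37 to -0.58). Every H2A change of these pairs (-1.59 to -0.86) lay below every H2B change (-0.81 to -0.14). Any other pairing of these genes would give the same count, so it only restates the difference between the classes.
For the pair around the stretch printed above, the Pkd1 changes were -1.49 for Hist1h2ae and -0.81 for Hist1h2bg.
In Pkd2 knockouts the H2A gene was the more negative in 10 of 11 pairs, with a median difference of -0.29, and with age in 8 of 11, with -0.14.
The exception in Pkd2 knockouts was Hist1h2ac with Hist1h2bc, at -0.37 and -0.82.
All pairs lie in the Hist1 cluster except Hist2h2ac with Hist2h2be, of the Hist2 cluster. Most of their genes, through near-identical coding sequences, share reads, so the pairs are not independent of each other. Hist2h2be shared no word with another gene.

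**Figure D4:**
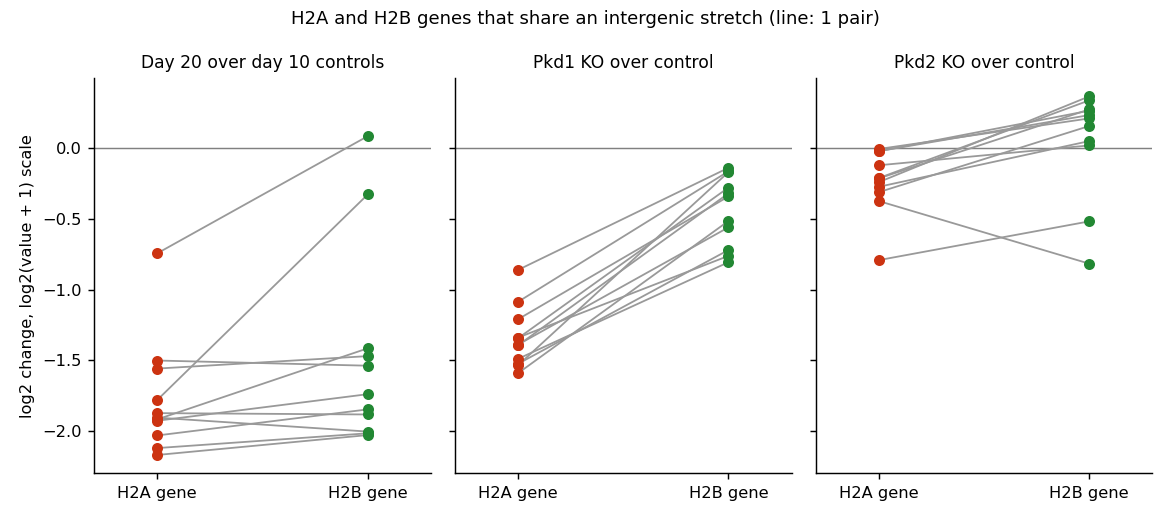
Log2 change of the H2A and H2B genes of the 11 tested head-to-head pairs in the 3 comparisons; each line joins a pair. In Pkd1 knockouts every line runs upward to the H2B gene, as it would under any pairing of these genes (median difference of the pairs -0.87, H2A minus H2B). With age the median difference is -0.14.

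The classes also differ in base composition, and this ran alongside the Pkd1 change.
The median GC share of the coding sequence was 59.4% for H1, 61.9% for H2B, 65.1% for H4, 66.9% for H3 and 68.8% for H2A, the same order as the class medians of the Pkd1 change from 0.20 to -1.34.
Across the 61 tested members with an annotated coding sequence, Spearman's rho between GC share and log2 change was -0.91 for Pkd1, -0.42 for Pkd2 and -0.26 for age; this is a description, since the genes share libraries, classes and reads.
At a GC share of 65% or more, 34 members had a median Pkd1 change of -1.10, against -0.22 for 233 other genes in that range, of which 7.30% were called lower.
Between 60% and 65%, 22 members had a median of -0.30 and 1209 other genes of -0.26, and between 55% and 60%, 5 members had 0.10 and 3490 other genes -0.12.
In the age comparison the members lay below other genes of like GC, with -1.77 against -0.12 at 65% or more and -1.31 against -0.13 between 60% and 65%.
With the trend over GC removed from each library, a choice made after seeing the data, 9 members were lower in Pkd1 knockouts, all H2A genes, with an H2A median of -0.99, an H3 median of -0.62 and a median of -0.55 over the tested members, and 36 were lower at day 20.

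**Figure D5:**
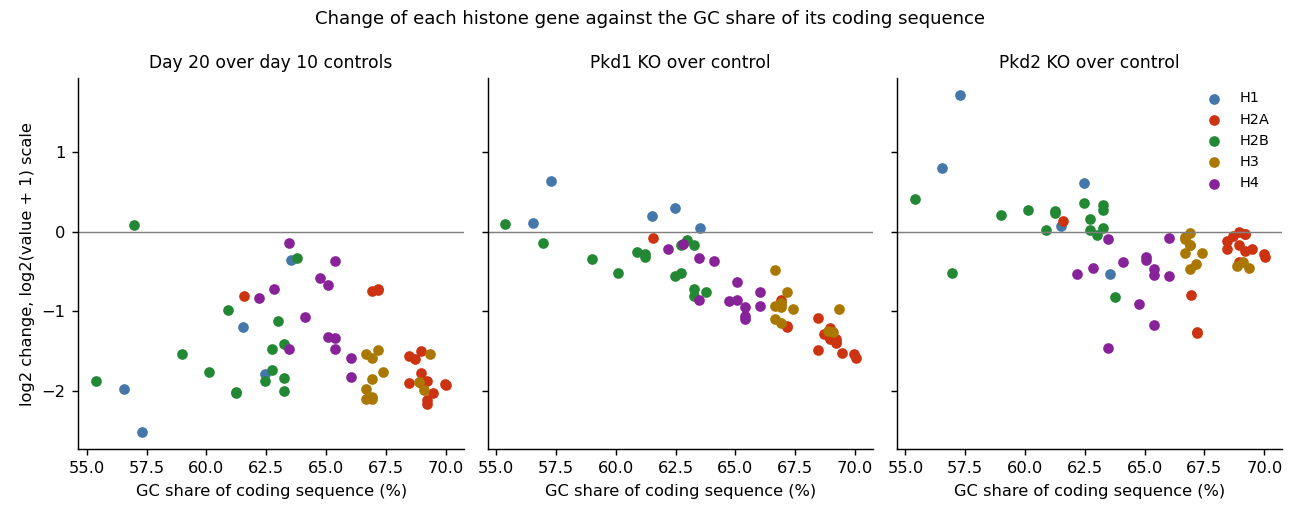
Log2 change against the GC share of the coding sequence (%) for 61 tested histone genes, coloured by class, in the 3 comparisons. In Pkd1 knockouts the points descend from H1 at the left to H2A at the right (Spearman's rho -0.91), while with age rho is -0.26.

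Genes that act with these histones were read from lists, and their calls use the same backgrounds. Of all tested genes, 9.54% were called higher in Pkd2 knockouts and 7.26% lower at day 20. The counts of the processing list below are near or under these shares.
Of 26 rows for histone mRNA processing, 0 passed in Pkd1 knockouts, 1 rose in Pkd2 knockouts (Zfp473, which binds the histone pre-mRNA with the U7 snRNP) and 2 fell at day 20 (Ccne1 and Ccne2, the cyclins E that drive entry into S phase). Among these rows Coil has 2, and Tent2, also chosen for the list, has none.
Zfp473 stood at 1.51 and 3.17 in Pkd2 knockouts, against 0.234 and 0.397 in their controls, and Ccne2 at 4.94 and 4.01 in day 20 controls, against 9.79 and 12.9 in day 10 controls.
Npat, the coactivator of histone transcription, had 9.89 and 14.7 in Pkd2 knockouts, against 8.13 and 6.95 (log2 change 0.62 ± 0.20, limma adjusted p = 0.0692).
Of 10 tested replication-independent histones 3 fell at day 20 (H2afy2, H2afx and Cenpa), 1 rose in Pkd2 knockouts (Cenpa, the centromeric H3) and 0 passed in Pkd1 knockouts.
H3f3b, which makes the variant H3.3, stood at 585 and 476 in Pkd1 knockouts, against 301 and 351 (0.70 ± 0.21, adjusted p = 0.0678, limma).

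Calls among histone chaperones and S phase genes were all lower at day 20 and all higher in Pkd2 knockouts. Of all tested genes, 7.26% and 9.54% were called in these directions, and the 1 of 20 chaperones called in Pkd2 knockouts is under that share.
Of 20 chaperones 6 fell at day 20 and 14 did not pass; the 6 include Chaf1a and Chaf1b of the CAF-1 complex that deposits new H3 and H4, and in knockouts 1 rose, Chaf1b in the Pkd2 model (5.27 and 5.23, against 2.13 and 1.897 in its controls, log2 change 1.05 ± 0.17, limma adjusted p = 0.00544).
Of 24 S phase genes 16 fell at day 20 with a median of -1.15, 8 rose in Pkd2 knockouts with a median of 0.49, and 0 passed in Pkd1 knockouts, with a median of 0.13.
Their summed values were 593 and 438 in Pkd1 knockouts, 437 and 431 in Pkd1 controls, 269 and 312 in Pkd2 knockouts and 193 and 165 in Pkd2 controls.
Top2a, the topoisomerase of dividing cells, stood at 27.3 and 40.05 in Pkd2 knockouts, against 11.6 and 10.3, and Mcm6, of the replicative helicase, at 25.8 and 23.7, against 15.05 and 11.4.
In Pkd2 knockouts both libraries of the S phase sum lay above their controls, while the histone sum of 603 and 276, against 513 and 653, overlapped.
Whether the S phase list and the histone genes differ was not tested.

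Marker genes of other cell types changed in the knockout kidneys, and their part in the histone values was not tested. Of all tested genes, 5.11% were called higher and 5.48% lower in Pkd1 knockouts, and 9.54% and 8.13% in Pkd2 knockouts. With age these shares were 5.04% and 7.26%.
Macrophage markers rose in 9 of 10 genes in Pkd1 knockouts (summed value 133 and 131, against 46.8 and 40.7 in controls) and in 10 of 10 in Pkd2 knockouts (213 and 251, against 47.5 and 48.3), with 0 of 10 passing with age.
Kidney epithelium markers fell in 6 of 10 genes in Pkd1 knockouts (972 and 1340, against 2597 and 2548) and in 7 of 10 in Pkd2 knockouts (1984 and 1744, against 4874 and 5222); with age 2 rose and 2 fell.
Of the T and B lymphocyte markers 2 of 10 were expressed enough to test, of which 1 rose in Pkd1 and 2 in Pkd2 knockouts, with summed values between 1.92 and 5.10 in all libraries.
Fat markers, 9 tested, gave 1 higher in Pkd1 knockouts (Lep) and 2 lower in Pkd2 knockouts (Ucp1 and Cidea). Erythroid markers, 7 tested, gave 1 lower in Pkd2 knockouts (Slc4a1), and neither list had a call with age. In lists this short, 1 or 2 calls are too few to read as a change of the cell type.
Of 9 tested small structural RNAs 0 passed in any comparison.
The kidney data held rows for 8 of 10 erythroid markers and for 10 of 10 in each other marker list. Among these rows none was at 0 in all kidney libraries.

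In the cells, Hist1h2bc, a core histone gene also made as polyadenylated mRNA, was lower with the Hoxb3os gapmer.
Its size-factor-scaled counts were 774, 754 and 737 in gapmer libraries, against 1109 and 903 in control libraries.
Every gapmer library lay below both controls, with means of 755 ± 18.5 (SD, n = 3) and 1006 ± 145 (SD, n = 2).
The log2 change was -0.41 ± 0.08 (SE, limma adjusted p = 1.9e-05 over 2016 genes), and it was called in all 10 alternatives run.
The table holds only genes that the authors had called, with 44.4% higher and 55.6% lower here, so a call in it carries no information of its own; in the authors' deposited table the log2 change was -0.327 with an adjusted p of 0.00031.
The same gene had Pkd1 and Pkd2 knockout changes of -0.76 and -0.82 in the kidneys, neither of which passed.

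Of the lists, 9 genes were in the cell table and all were lower with the gapmer, in a table where 55.6% of genes are.
They include Slbp, the stem-loop binding protein, with 8388, 7724 and 7869 in gapmer libraries, against 8602 and 8878 in control libraries (log2 change -0.13 ± 0.04, limma adjusted p = 0.00551).
H2afx, the variant phosphorylated at DNA breaks, had 950.0, 1045 and 1003, against 1325 and 1320 (-0.40 ± 0.06).
Hira, which deposits H3.3 outside S phase, had 166, 177 and 172, against 309 and 334 (-0.90 ± 0.12).
The S phase genes Mcm6, Pcna and Pola1 had changes of -0.21, -0.14 and -0.35, and Fip1l1, Cabin1 and Cenpa of -0.25, -0.19 and -0.14.
No kidney or blood cell marker of the lists was among the 2016 genes.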

How the data were processed

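RNA-seq was measured in 8 kidney libraries and 5 cell libraries. The submitters' processing notes name RSEM 1.2.22, edgeR, STAR 2.4.2a, FastQC 0.11.2 and Cufflinks 2.2.1 with mm10 for kidneys, and DESeq2 1.12.3, STAR 2.4.2a, Trimmomatic 0.32 and SAMtools 1.0 with GRCm38 for cells. Strand setting, annotation and treatment of poly(A) RNA were not given in the sources used. For each kidney library the authors deposited a signal, that is, read counts with a scale factor per library; the deposited signal of the cells is counts over a size factor. The authors also deposited log2 changes (control minus knockout in kidneys), a likelihood-ratio score and p-values; the cell table lists genes with an adjusted p under 0.05.

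Here log2(value + 1) of genes at 1 or more in at least 2 libraries (14637 of 28183) was fitted with limma 3.58.1 (R 4.3.3; trend) over all 4 kidney groups, and the 2016 cell genes in a fit of their own; fold changes are on this scale, which understates those of low genes. P-values were adjusted by Benjamini-Hochberg over all tested genes, with 0.05 as threshold. Reads recovered from the values went into edgeR 4.0.16 and DESeq2 1.42.0 as alternatives. The scripts were tested on simulated data. Depth was 30.7 to 94.4 M reads per kidney library. Values per library are given for up to 24 called members by smallest adjusted p, the 2 highest per class, 3 genes known as polyadenylated mRNAs and the member in the cell table; other members named beside them were chosen after their values were seen. For other lists up to 4 genes by smallest adjusted p were the rule. Members and lists were chosen with earlier results of these data known. Replicate numbers were not treated as pairs.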

Additional observations from a re-analysis of the deposited data

How the results depend on the processing

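No alternative turned the direction of a called member. The 7 members lower in Pkd1 knockouts became 3 with a pseudocount of 0.1, 0 with no filter on low values, 2 by edgeR, 12 by DESeq2 and 21 with the structural RNA covariate, and 0 to 19 when a library was left out, with 0 to 1 higher. The single member higher in Pkd2 knockouts became 2 with a pseudocount of 0.1, with scaling to nuclear protein-coding genes, by edgeR, by DESeq2, and with the GC trend removed, and 3 with the covariate; leaving out a library gave 0 to 2 higher and 0 to 3 lower, and quantile scaling gave 1 lower. The 32 members lower at day 20 became 10 with no filter and, in fits with fewer libraries, 52 in control libraries alone; the covariate gave 53, and leaving out a library 3 to 46. Apart from the fits with fewer libraries or more genes tested, the cause was not tested. Leaving out a library moved the summed value to 494 to 1507 in Pkd1 knockouts, 1249 to 1493 in Pkd1 controls, 276 to 603 in Pkd2 knockouts and 513 to 653 in Pkd2 controls. The replicate numbers share only a number: with the replicate block, 7 members were lower in Pkd1 knockouts, 2 higher in Pkd2 knockouts and 40 lower at day 20, and deviations of same-numbered Pkd1 knockout and control libraries correlated at -0.378. With the numbers of the Pkd1 controls crossed, the replicate block gave 7 lower, 2 higher and 1 lower in Pkd2 knockouts, and 41 lower at day 20. The covariate, the crossed pairing and the GC trend were chosen after seeing the data. With 2 libraries in each kidney group and near-identical copies, the precision for single genes is limited by replicate number and by shared reads.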

Other observations

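Histone rows of the kidney table that are not protein-coding were outside the comparisons. A second Hist2h2bb row, annotated as a lincRNA that overlaps the protein-coding row on the same strand, had scaled values of 10.9 and 4.40 in Pkd1 knockouts, 6.04 and 6.28 in Pkd1 controls, 3.20 and 1.57 in Pkd2 knockouts and 1.48 and 1.5001 in Pkd2 controls. The pseudogene Hist1h2aj had 1.66 and 0.381 in Pkd1 knockouts, 3.89 and 3.18 in Pkd1 controls, 0.729 and 0.509 in Pkd2 knockouts and 0.599 and 0.886 in Pkd2 controls. Hist3h2bb-ps, a processed pseudogene, had 1.70 and 1.19 in Pkd1 knockouts, 0.992 and 1.09 in Pkd1 controls, 0.589 and 0.601 in Pkd2 knockouts and 0.182 and 0.265 in Pkd2 controls. In each of these rows both day 20 control libraries lay below both day 10 control libraries.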
